A study of Mus musculus with 4 samples.

Results

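The transcripts described here are those of 10 genes that restrain MAPK signaling: the dual-specificity phosphatases Dusp1, Dusp2, Dusp4, Dusp5, Dusp6 and Dusp10, the Sprouty genes Spry1 and Spry2, and the Spred genes Spred1 and Spred2. They were taken by gene symbol from a table of 16142 genes, and 10 of 10 were found. RNA-seq was performed on stimulated splenic CD4+ T cells, with 2 WT and 2 R111A libraries, to compare T cells with and without a mutant of the RNA-binding protein Regnase-1 that the MALT1 protease cannot cleave. WT cells came from WT B6 mice, and R111A cells came from Cd4CreERT2 LSL-R111A fl/fl mice. Their CAG promoter in the Rosa26 locus drives the mutant and EGFP, joined by a P2A peptide, once Cre has removed a STOP cassette. The labels of both groups name i.p. tamoxifen at 75 mg/kg on 5 days in a wording that can be read as covering the WT mice too or the R111A mice alone, and WT mice were tamoxifen-treated in other assays of the study. Cells of both groups were purified without labeling the CD4+ T cells, FACS sorted, and kept for 12 h with anti-CD3 (5 µg/mL) plus anti-CD28 (1 µg/mL). Males and females aged 6 to 12 weeks were the default of the study. The labels give neither age nor sex for these libraries and do not say whether CD25+ cells were removed. WT B6 mice carry neither Cre nor EGFP, so effects of Cre, EGFP and R111A cannot be told apart, nor can those of tamoxifen if WT mice did not receive it. Nothing says that the 2 libraries of a group came from separate animals, so p-values measure the spread between these samples only. Unstimulated cells were not analysed here.

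The values were FPKM, that is, fragments scaled by transcript length and by the depth of the library, and the number of reads behind each value is not known. The FPKM of a library added up to 801475 (replicate 1) and 836143 (replicate 2) in WT, and for R111A to 1053551 (replicate 1) and 1012215 (replicate 2). The log2 ratio between replicates had an SD, estimated from the median absolute deviation over 1938 genes whose mean reached 50 FPKM, of 0.12 in WT and 0.32 in R111A. Zc3h12a, which encodes Regnase-1, was at 17.0 and 15.7 FPKM in WT cells, and at 196 and 131 in R111A cells. This was a log2 fold change of 3.22 (SE 0.19, adjusted p = 9.2e-06), and both R111A libraries lay above both WT libraries. Reads of the endogenous gene and of the transgene cannot be told apart in this value.

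Engagement of the T cell receptor leads through LAT, RASGRP1 and SOS to RAS, and from there to RAF, MEK and ERK, while JNK and p38 are reached through MAP3K and MAP2K enzymes. Dual-specificity phosphatases of the MAPK phosphatase class switch these kinases off by removing phosphate from both the threonine and the tyrosine of the activation loop. Sprouty and Spred proteins act further upstream, at the level of RAS and RAF. Many of these genes are themselves induced by MAPK signaling, so their products form a negative feedback, and their transcripts are often read as a record of recent pathway activity.

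Of the 9 genes with an entry in the RefSeq promoter table (GRCm38.p6; 250 bases before to 50 bases after the start), 1 carried CArG boxes, the site of the serum response factor, and 1 carried a full cAMP response element (CRE, TGACGTCA). Both genes changed between the groups, in opposite directions, and their stretches are shown for that reason. The Dusp5 stretch lies at chr19:53529048-53529097 on the plus strand, from base -97 to base -48 upstream of the start, and capitals mark a pair of adjoining CArG boxes, while the TGACG of the other strand nearer the start is left in lower case. The Dusp1 stretch lies at chr17:26508596-26508675 on the minus strand, from base -203 to base -124, and capitals mark the CRE and the shorter site TGACG upstream of it. Both are upstream of the annotated genes.
Dusp5: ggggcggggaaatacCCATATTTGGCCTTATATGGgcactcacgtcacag
Dusp1: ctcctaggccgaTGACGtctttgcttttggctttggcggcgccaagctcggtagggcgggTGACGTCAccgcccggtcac

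Motifs were searched on both strands. A CArG box was present in 1.63% of the 32851 promoters in the table and in 1.31% of the 10184 promoters of genes tested here. A full CRE was present in 1.79% and 3.3%, respectively. The shorter site TGACG, which lies on both strands of each full CRE, was found in 4 of the 9 promoters (Dusp1, Dusp2, Dusp5 and Spred2), against 33.1% of the promoters of genes tested. The ETS core CCGGAA was found in the Spry2 promoter alone, against 30.7%, and the AP-1 site TGANTCA in 0 of the 9, against 4.55%. A match describes the letters only, and the promoters of Dusp6, Dusp10, Spry1 and Spred1 held none of these letters within the window.

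**Figure D1:**
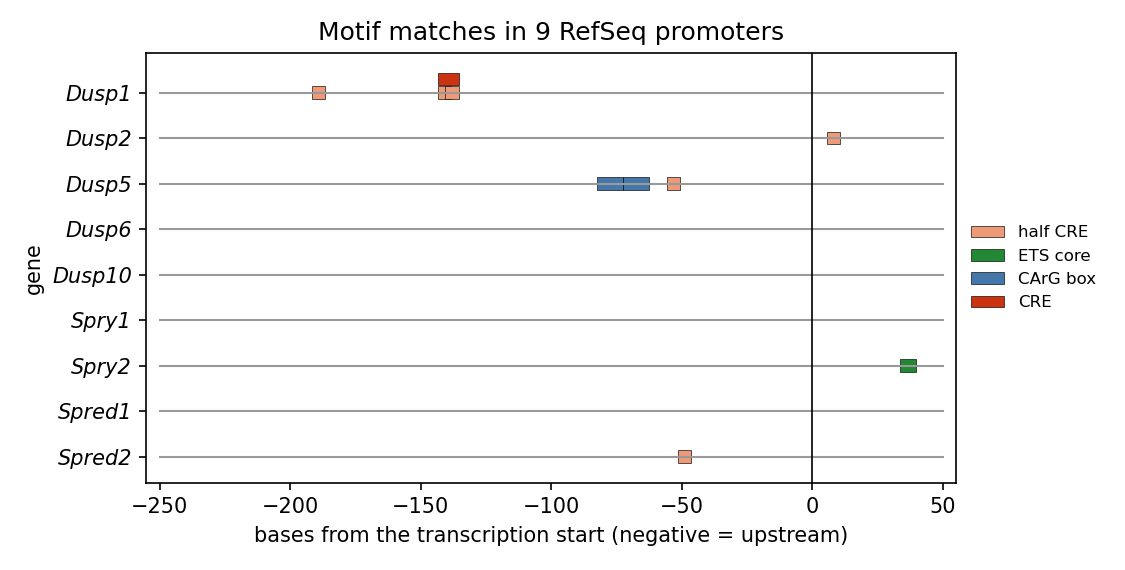
Matches to 4 motifs in the RefSeq promoters of 9 genes, drawn by distance in bases from the transcription start, with 1 grey line per promoter. The 2 CArG boxes of Dusp5 adjoin each other between bases -82 and -63, and the CRE of Dusp1 lies between bases -143 and -136.

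In R111A cells, Dusp1, Dusp10 and Spry2 were higher and Dusp5 and Dusp6 were lower than in WT cells. The test was limma on log2(FPKM + 1) over the 9831 genes whose mean reached 1 FPKM, and a gene was called at a 2-fold change with an adjusted p under 0.05. By this rule 3 of the 10 genes were called higher and 2 lower, where 8.52% of all genes tested were called higher and 8.34% lower. By the adjusted p alone, 3 were higher and 4 lower, against 21.2% and 32.1% of all genes. The 10 genes were picked with results of these data known, and Spry2 passed the filter only through its R111A values, so these counts are a description. Both R111A libraries lay above both WT libraries for 5 of the 10 genes and below them for the other 5, against 32.0% and 46.3% of all genes tested. The median log2 fold change of the 10 was -0.05, beside -0.12 over all genes tested. A fall in RNA per cell and a smaller share of cells that express a gene cannot be told apart in bulk RNA.

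**Figure D2:**
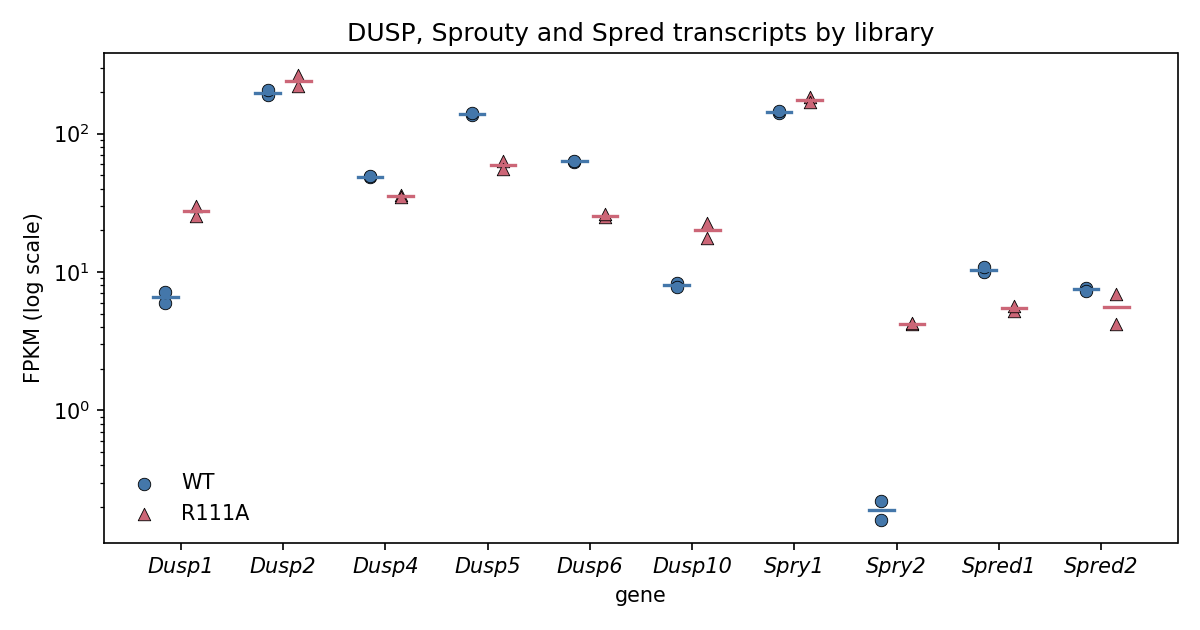
FPKM of the 10 genes (log axis) in each library, with circles for the 2 WT and triangles for the 2 R111A libraries and a bar at each group's mean. Dusp1 rose from 6 and 7.21 to 30.1 and 25.3 FPKM, and Dusp6 fell from 61.9 and 63.8 to 24.8 and 26 FPKM.

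Among the inducible nuclear phosphatases, Dusp1 and Dusp5 changed in opposite directions. Dusp1, which acts on p38, JNK and ERK and is a classic early-response gene, was at 6 and 7.21 FPKM in WT cells, and at 30.1 and 25.3 in R111A cells. The groups did not overlap, and the R111A mean was 4.19 times the WT mean. Its log2 fold change was 1.92 (SE 0.16, 95% confidence interval 1.56 to 2.27, adjusted p = 3.3e-05). Dusp1 (NCBI gene 19252) lies at chr17:26505591-26508472.

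Dusp5, a nuclear phosphatase selective for ERK, was at 136 and 140.3 FPKM in WT cells, and at 63.2 and 55.5 in R111A cells. Both R111A libraries were below both WT libraries, and the WT mean was 2.33 times the R111A mean. The log2 fold change was -1.21 (SE 0.13, 95% confidence interval -1.50 to -0.91, adjusted p = 0.00013). Under quantile normalization, which gives all libraries the same distribution, it was -0.97 with an adjusted p of 0.00064, so that it no longer reached 2-fold. Dusp5 (NCBI gene 240672) lies at chr19:53529145-53541809, just downstream of the CArG boxes printed above.

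Dusp2 and Dusp4, also nuclear phosphatases, differed less. Dusp2, also known as PAC-1 and abundant in activated lymphocytes, had the highest level of the 10 genes in each library, with 189 and 206 FPKM in WT and 264 and 219.7 FPKM in R111A. The groups did not overlap, but R111A replicate 2 was close to WT replicate 2, and the log2 fold change of 0.29 (95% confidence interval -0.03 to 0.60) did not pass the test (adjusted p = 0.11, and 0.011 to 0.78 over the alternatives). Dusp2 (NCBI gene 13537) lies at chr2:127336159-127338377. Dusp4 (NCBI gene 319520, chr8:34807610-34819894), which acts on ERK and on JNK, was at 48.4 and 49.1 FPKM in WT cells, and at 36.1 and 34.7 in R111A cells. It was lower by the adjusted p without reaching 2-fold (log2 fold change -0.45, SE 0.13, adjusted p = 0.016). This was lost without WT replicate 1 (adjusted p = 0.19), without WT replicate 2 (adjusted p = 0.22) and under quantile normalization (adjusted p = 0.092), with the adjusted p as low as 0.00038 after rescaling to TPM, while the value itself lay between -0.78 and -0.29 over the alternatives.

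Dusp6, the cytoplasmic phosphatase selective for ERK, was lower by about as much as Dusp5. It was at 61.9 and 63.8 FPKM in WT cells, and at 24.8 and 26 in R111A cells. Replicates differed by little and the groups were far apart, with a WT mean 2.47 times the R111A mean. The log2 fold change was -1.27 (SE 0.13, 95% confidence interval -1.56 to -0.98, adjusted p = 8.7e-05). The gene (NCBI gene 67603, chr10:99263231-99267489) shares its interval with Gm34921, and whether reads were counted by strand is not given in the sources used here.

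Dusp10, a phosphatase that prefers JNK and p38 over ERK, changed the other way. It was at 8.25 and 7.74 FPKM in WT cells, and at 22.4 and 17.4 in R111A cells. Both R111A libraries were above both WT libraries, with R111A replicate 1 the higher of them. The log2 fold change was 1.21 (SE 0.16, 95% confidence interval 0.85 to 1.57, adjusted p = 0.00037). It was under 2-fold, with the adjusted p still below the threshold, at a pseudocount of 5 FPKM (0.93) and after rescaling to TPM, where the FPKM of a library are divided by their sum (0.90). Dusp10 (NCBI gene 63953) lies at chr1:184034381-184075636.

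The 2 Sprouty genes differed in level by far more than they did in direction. Spry2 was nearly absent from WT cells, at 0.16 and 0.22 FPKM, and was at 4.23 and 4.24 FPKM in R111A. The R111A mean was 22.3 times the WT mean, although the WT values are so low that this ratio is imprecise. On the log2(FPKM + 1) scale, which understates the change of a low gene, the log2 fold change was 2.14 (SE 0.14, adjusted p = 1.2e-05), and at a pseudocount of 5 FPKM it was 0.83. Spry2 (NCBI gene 24064) lies at chr14:105891947-105896819.

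Spry1, by contrast, was abundant in both groups, with 142 and 146 FPKM in WT cells against 184 and 168 in R111A cells. The R111A libraries were above the WT libraries, but the log2 fold change of 0.29 (95% confidence interval 0.0036 to 0.57) did not pass the adjusted test (adjusted p = 0.081, and 0.0088 to 0.78 over the alternatives). At these levels Spry1 transcripts outnumbered those of Spry2 in R111A cells as well, on the FPKM scale. Spry1 (NCBI gene 24063) lies at chr3:37639947-37644599.

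The Spred genes, whose products bind RAS and bring the GTPase-activating protein neurofibromin to the membrane, were lower or did not pass the test. Spred1 was at 10 and 10.8 FPKM in WT cells, and at 5.24 and 5.66 in R111A cells. It was lower by the adjusted p, with a log2 fold change of -0.82 (SE 0.14, adjusted p = 0.0014), and reached 2-fold only after rescaling to TPM (-1.12). Spred2 was at 7.69 and 7.23 FPKM in WT cells, and at 6.97 and 4.22 in R111A cells. Its log2 fold change of -0.39 (95% confidence interval -0.85 to 0.07, adjusted p = 0.13) rested on R111A replicate 2, since it was -0.09 (adjusted p = 0.50) without that library and -0.70 (adjusted p = 0.003) without R111A replicate 1. After rescaling to TPM it was -0.69 and passed the adjusted p (0.0076), under 2-fold. Spred1 (NCBI gene 114715) lies at chr2:117121071-117182279 and Spred2 (NCBI gene 114716) at chr11:19924442-20024026. Nf1, which encodes neurofibromin, had 1.73 and 1.64 FPKM in WT cells against 1.3 and 1.62 in R111A cells and did not pass the test (adjusted p = 0.47).

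**Figure D3:**
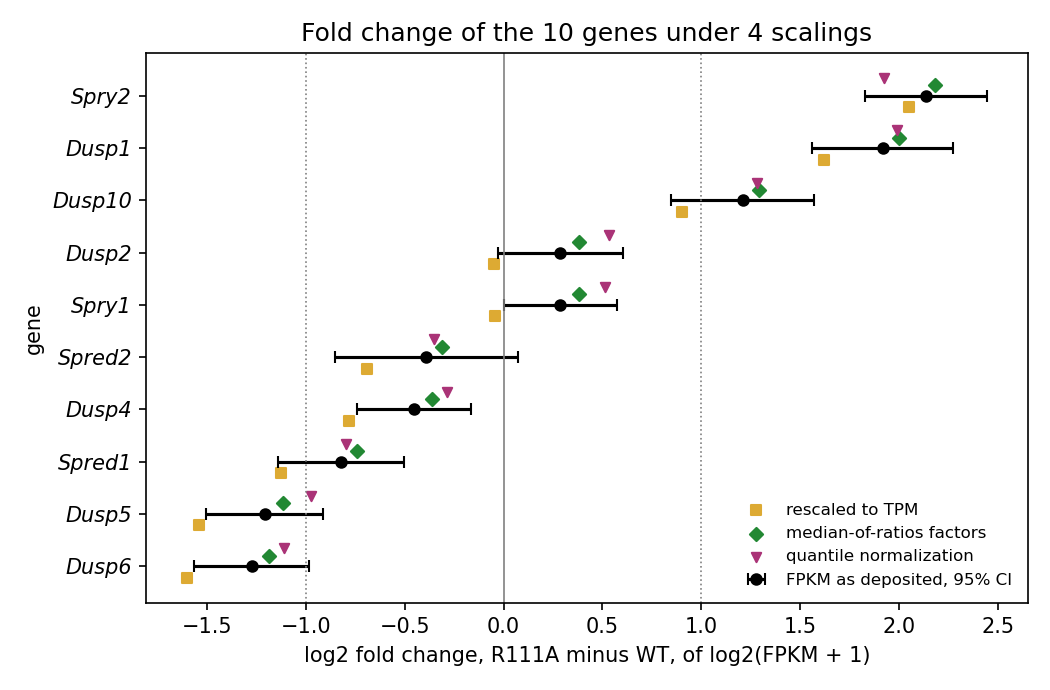
Log2 fold change (R111A minus WT) of each gene with its 95% confidence interval from limma (black), and the value under 3 other scalings (colored symbols); dotted lines mark 2-fold. Dusp1, Dusp10 and Spry2 lie to the right of 0 and Dusp4, Dusp5, Dusp6, Spred1 and Spred2 to the left under all 4 scalings, while Dusp2 and Spry1 cross 0 after rescaling to TPM.

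The scaling of the libraries matters for the smaller changes. Rescaling each library to TPM moved the median log2 fold change of all genes tested from -0.12 to -0.42, and the share of calls that were higher from 50.5% to 24.8%. Dusp2 and Spry1 then had log2 fold changes of -0.046 each (adjusted p = 0.78 for both). Relative to the median of all genes, they were 0.40 and 0.40 higher with FPKM as deposited, and 0.37 and 0.37 higher after TPM. On the same relative scale, Dusp6 was at -1.16 and -1.18, Dusp5 at -1.09 and -1.12, Dusp10 at 1.32 and 1.32, and Dusp1 at 2.03 and 2.04.

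The order of the levels also differed between the groups. In WT cells the order by mean FPKM was Dusp2, Spry1, Dusp5, Dusp6, Dusp4, Spred1, Dusp10, Spred2, Dusp1 and Spry2, and no 2 neighbors overlapped. In R111A cells Dusp2, Spry1 and Dusp5 again led, followed by Dusp4, Dusp1, Dusp6, Dusp10, Spred2, Spred1 and Spry2. There, Dusp1 overlapped Dusp6, and Spred2 overlapped both Spred1 and Spry2. Dusp1 was thus well below Dusp6 in WT cells and at its level in R111A cells.

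**Figure D4:**
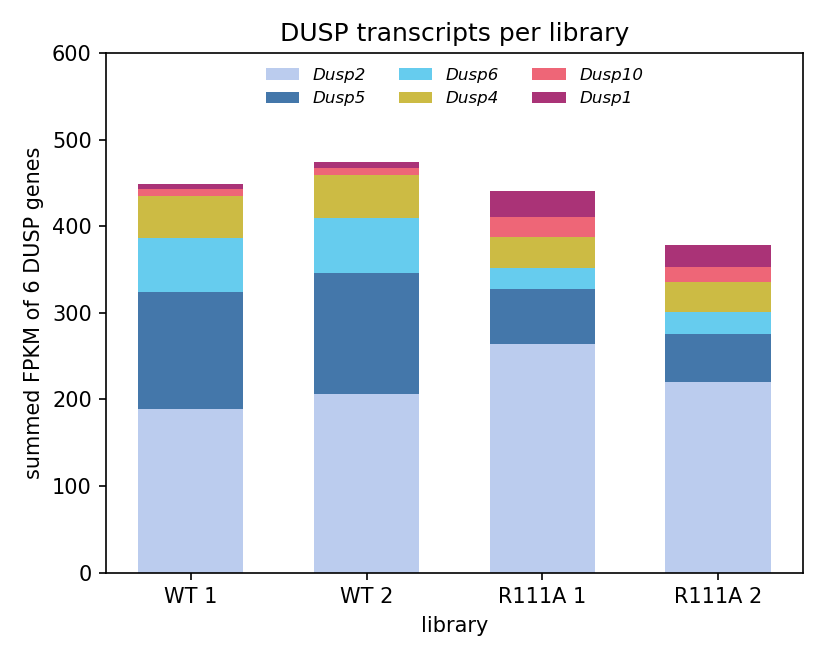
Summed FPKM, as deposited, of the 6 dual-specificity phosphatases in each library, stacked by gene. The height of a bar depends on the scaling of its library. The libraries of WT reach 449 and 474 FPKM, and those of R111A 440.5 and 379 FPKM, and the Dusp5 and Dusp6 blocks are smaller, and the Dusp1 and Dusp10 blocks larger, in both R111A libraries.

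Within the 6 phosphatases, the makeup changed more than the sum of FPKM as deposited. That sum depends on the scaling of the library, and the FPKM of all genes added up to more in both R111A libraries than in WT. Dusp2 contributed 42% and 43.4% of the summed FPKM in WT and 59.9% and 58% in R111A. Dusp5 contributed 30.3% and 29.6% in WT and 14.4% and 14.7% in R111A. Dusp1 contributed 1.34% and 1.52% in WT and 6.83% and 6.68% in R111A. These are shares of FPKM within a library, so the scaling of the library does not enter them. The ERK-selective pair Dusp5 and Dusp6 together stood at 13.9 and 13.7 times the summed FPKM of Dusp1 and Dusp10 in WT, and at 1.68 and 1.91 times in R111A. This pairing was chosen after the values were seen and was not tested.

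The genes whose pattern over the 4 libraries was nearest to that of Spry2, by root mean square difference in centered log2(FPKM + 1) among 7648 genes whose mean reached 5 FPKM, were St8sia6 (0.032), Dnase1l2 (0.033) and Smox (0.051). St8sia6 was at 3.05 and 3.24 FPKM in WT cells, and at 17.8 and 18.3 in R111A cells. Nearest to Dusp6 were Uri1 (0.022), Dlat (0.026) and Ttc32 (0.027). Uri1 was at 29.9 and 31.8 FPKM in WT cells, and at 12.1 and 12.8 in R111A cells. With 4 libraries such a likeness is mostly the size of the difference between the groups.

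Since Regnase-1 cuts mRNAs at stem-loops in their 3'UTRs, the longest annotated 3'UTR of each gene was folded with RNAfold in windows of 100 nt. A stem-loop was counted where a stem of at least 3 base pairs with at least 1 GC pair closed a loop of 3 to 6 nt that held a pyrimidine-purine-pyrimidine run. Such stem-loops were found in 10 of the 10 genes, against 81.2% of the 9706 genes folded, and in 37 of their 141 windows (26.2%), against 24.3% of the 152948 windows of all genes folded. Dusp1, which was higher in R111A cells, had 3 in 6 windows. Dusp6, which was lower, had 4 in 11 windows, as did Dusp5. Spred1, with the longest 3'UTR at 4330 nt, had 6 in 43 windows.

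A loop of exactly 3 nt, the form best known for Regnase-1, was predicted in 2 of the 141 windows (1.42%), against 2.74% of all windows, and in 2 of the 10 genes, against 30.9% of all genes folded. These are shown with the loop in capitals, Dusp2 from base 479 to 491 and Dusp4 from base 253 to 277 after the stop codon. Neither gene was called at 2-fold.
Dusp2: ggcccTGTgggcc
Dusp4: agtttttacttTGCaggtagaaatt

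Other phosphatases and brakes of the pathway were read from lists of pathway genes. Of 4 other MAPK phosphatases 2 passed the filter, and both were lower by the adjusted p, as were 32.1% of all genes tested. Dusp7, a close relative of Dusp6 that acts on ERK, was at 14.9 and 13.5 FPKM in WT cells, and at 7.23 and 5.44 in R111A cells (log2 fold change -1.06, SE 0.16, adjusted p = 0.00087). It was under 2-fold without WT replicate 1 (-0.99), without R111A replicate 2 (-0.88), under median-of-ratios factors (-0.98), under quantile normalization (-0.995) and at a pseudocount of 5 FPKM (-0.76). Dusp16, which acts on JNK and p38, was at 4.77 and 4.41 FPKM in WT cells, and at 2.37 and 2.74 in R111A cells (adjusted p = 0.005). Of 18 further dual-specificity phosphatases, the atypical ones and the slingshot phosphatases Ssh1, Ssh2 and Ssh3, 14 were in the table and 10 were tested. Over all genes tested, 21.2% were higher and 32.1% lower by the adjusted p alone. Of the 10, 1 was higher (the slingshot phosphatase Ssh3) and 3 were lower (Dusp12, Dusp19 and Dusp22) by the adjusted p in limma. Each of these was under 2-fold on the log2(FPKM + 1) scale. Ssh3 was just under it (0.97), its mean FPKM in R111A cells was 2.35 times that in WT cells, and 1 gene of the list was called higher under median-of-ratios factors, as was Ssh3 without WT replicate 2. These names were given after the values were seen. The remaining Sprouty and Spred genes did not pass the filter. Spry3 was listed at 0, Spry4 was at most 0.3 FPKM in any library, and Spred3 was at 0.07 and 0.14 FPKM in WT cells, and at 0.95 and 1.08 in R111A cells.

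Among 18 other brakes on RAS and ERK that were tested, 3 were called higher, and by the adjusted p alone 5 were higher and 3 lower, beside 8.52% called higher and, by the adjusted p alone, 21.2% higher and 32.1% lower over all genes tested. Of these, Dok3 passed the filter only through its R111A values. The median log2 fold change of this list was 0.07 with FPKM as deposited and -0.26 after TPM. After TPM, 3 were again called higher, but by the adjusted p alone 3 were higher and 7 lower. Of the 9891 genes then tested, 580 were called higher and 1756 lower, and their median log2 fold change was -0.42. Counts by the adjusted p alone after TPM were not made over all genes. Dok3, an adaptor that restrains immune receptor signaling, was at 0.81 and 0.96 FPKM in WT cells, and at 11.7 and 11.6 in R111A cells (log2 fold change 2.75, SE 0.14, adjusted p = 4.8e-06). Rasa3 and Rasa1, both GTPase-activating proteins of RAS-family GTPases, had log2 fold changes of 1.50 (adjusted p = 0.00015) and 1.37 (adjusted p = 0.0002). For each of the 3, the lower R111A value exceeded the higher WT value.

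The kinases and adaptors themselves passed the adjusted p in both directions, in shares near the 21.2% and 32.1% over all genes tested. Of 26 genes tested from LAT and RAS to ERK and its kinase substrates, 2 were called higher and 1 lower, and by the adjusted p alone 6 were higher (Rps6ka2 passed the filter only through its R111A values) and 8 lower, with a median log2 fold change of -0.07, or 0.018 under median-of-ratios factors and -0.39 after TPM. Rasgrp2, an exchange factor of RAP and RAS GTPases, was at 5.57 and 5.29 FPKM in WT cells, and at 23.3 and 19.97 in R111A cells (log2 fold change 1.81, SE 0.14, adjusted p = 3.0e-05). Rras, a RAS-related GTPase, had a log2 fold change of 1.15 (adjusted p = 0.00088), which was 0.96 without R111A replicate 1, 0.88 after TPM and 0.73 at a pseudocount of 5 FPKM. Rps6ka1, an ERK-activated kinase, fell from 74.5 and 74.8 FPKM to 39.5 and 27.2 FPKM (log2 fold change -1.16, adjusted p = 0.00084), or by 0.90 on the log2 scale without R111A replicate 2 and by 0.98 under quantile normalization. After TPM, 1 gene of this list was called higher and 5 lower, beside 580 and 1756 of the 9891 genes then tested.

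Those shares were also near the ones over all genes for kinases of the JNK and p38 pathways. Of 15 tested, 1 was called higher and 1 lower, and by the adjusted p alone 3 were higher and 4 lower, with a median log2 fold change of 0.018, or -0.27 after TPM. Map2k3, which activates p38, was at 83.7 and 84.5 FPKM in WT cells, and at 297 and 245 in R111A cells (log2 fold change 1.67, SE 0.14, adjusted p = 3.5e-05). Map3k4, which lies upstream of p38 and JNK, was at 6.88 and 5.74 FPKM in WT cells, and at 1.73 and 1.23 in R111A cells (log2 fold change -1.56, SE 0.16, adjusted p = 0.00011), and at -0.80 with a pseudocount of 5 FPKM. After TPM, 1 gene was called higher and 4 lower, beside 580 and 1756 of the 9891 genes then tested.

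In R111A cells, Dusp1, Dusp10 and Spry2 were higher, and Dusp4, Dusp5, Dusp6 and Spred1 lower, by the adjusted p. In a list of other transcripts commonly read as ERK output, most were higher in the same libraries. This list was written with earlier results of these data known. It leaves out the 10 genes described here, although transcripts of such feedback genes are often read the same way. Of its 14 genes tested, 7 were called higher and 1 lower, and by the adjusted p alone 10 were higher and 2 lower. The median log2 fold change was 0.995 and depends on which genes were listed. Over all genes tested, 8.52% were called higher and 8.34% lower, or 21.2% and 32.1% by the adjusted p alone. The count called higher was 4 of 15 without R111A replicate 1, where Egr1, Fos and Phlda1 were no longer called, and 10 of 15 without R111A replicate 2. After TPM, where 1 more gene passed the filter, 4 of 15 were called higher and 2 lower, and the median was 0.72. Over the 9891 genes then tested, 580 were called higher and 1756 lower, with a median of -0.42. Egr2, an early-response transcription factor, was at 51.4 and 50.6 FPKM in WT cells, and at 179 and 130.2 in R111A cells (log2 fold change 1.56, SE 0.16, adjusted p = 0.00012). Ier5, Maff and Epha2 had log2 fold changes of 1.85, 1.86 and 3.35, and Epha2 passed the filter only through its R111A values, being at 0.11 and 0.05 FPKM in WT.

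Not every transcript of that list was higher. Myc was at 228 and 204 FPKM in WT cells, and at 128 and 87.6 in R111A cells (log2 fold change -1.02, SE 0.18, adjusted p = 0.0019). It was under 2-fold without WT replicate 1 (-0.94), without R111A replicate 2 (-0.75), under median-of-ratios factors (-0.93), under quantile normalization (-0.80) and at a pseudocount of 5 FPKM (-0.99). Etv4 did not pass the filter, with 1.63 and 1.4 FPKM in WT cells against 0.2 and 0.26 in R111A cells, and was singled out after its values were seen. The list summed to 915 FPKM in R111A replicate 1 and to 637 FPKM in R111A replicate 2, beside 530.5 and 513 FPKM in WT.

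**Figure D5:**
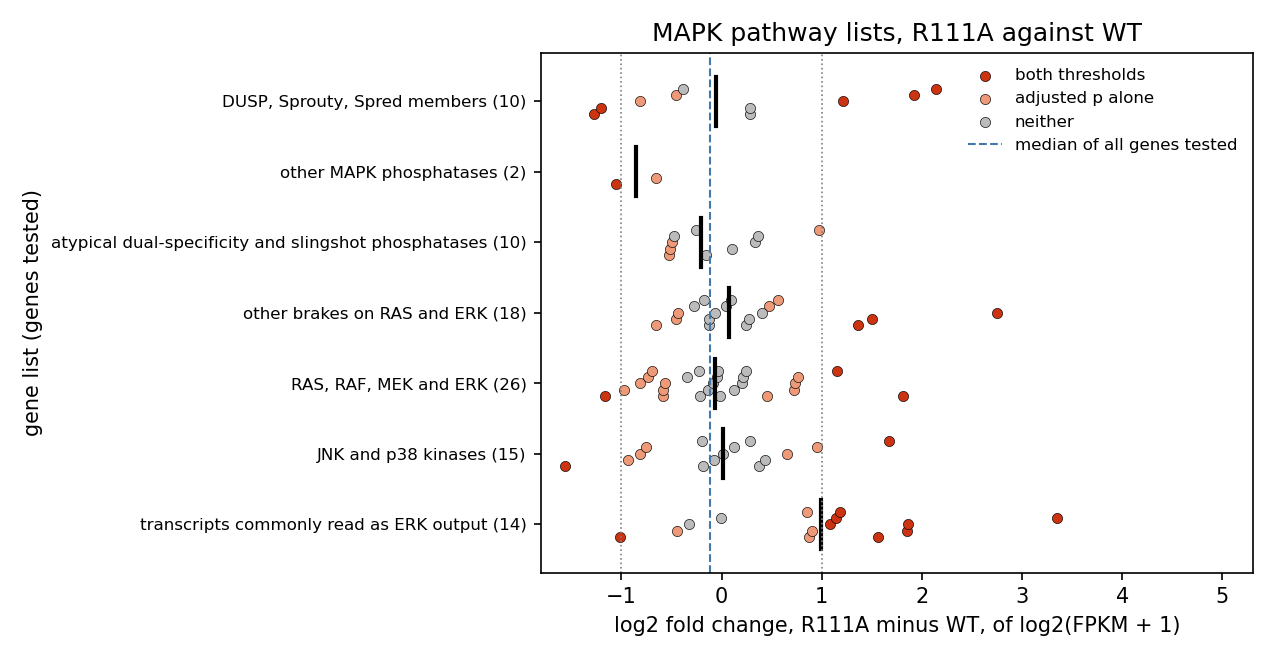
Log2 fold change (R111A minus WT) of each gene tested in 7 lists, with a black bar at each list's median, a dashed line at the median of all genes tested (-0.12) and dotted lines at 2-fold; red points passed both thresholds and pale red points the adjusted p alone. The list of ERK output lies furthest to the right, and the 10 genes described here spread to both sides.

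Markers of cell types were read beside these results. Of 10 genes that define T cells, 10 were tested, and they added up to 2390 and 2386 FPKM in WT cells, and to 2017 and 1849 in R111A cells, with Cd3g the most abundant in WT cells and 2 of the 10 called lower. Over all genes tested, 8.34% were called lower, and by the adjusted p alone 32.1% were lower and 21.2% higher. Of the 10 T cell genes, 5 were lower and 1 higher by the adjusted p alone. The latter, Cd3d, had 205 and 214 FPKM in WT cells against 275 and 267 in R111A cells (log2 fold change 0.37, adjusted p = 0.029). Cd4 was present in every library but lower in R111A cells, at 158 and 131 FPKM against 70.7 and 51.4 FPKM, and so was Thy1, at 96.5 and 98.1 FPKM against 25.5 and 25.1 FPKM. Of 6 genes associated with Tregs, 4 were called lower (Ctla4, Tnfrsf18, Foxp3 and Lrrc32), against 8.34% of all genes tested. The 6 genes added up to 396 and 411 FPKM in WT cells, and to 202 and 211 in R111A cells, and none was at 0. Tnfrsf18 was the most abundant of them in WT cells, and it, Il2ra and Ctla4 are also induced in activated conventional T cells. Foxp3 itself was at 11.3 and 8.78 FPKM in WT cells, and at 2.86 and 1.86 in R111A cells. The part of Treg RNA in the values of the phosphatase, Sprouty and Spred genes was not tested.

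Markers of other cells were low but higher in R111A libraries. The 10 myeloid markers summed to 5.8 and 2.88 FPKM in WT and to 19.6 and 14.8 FPKM in R111A. Of the 4 tested, 3 were called higher (Cd68, Lyz2 and Fcer1g), against 8.52% of all genes tested. The other gene tested, Tyrobp, was at 2.94 and 0.63 FPKM in WT cells, and at 0.85 and 0.97 in R111A cells. It did not pass the test (adjusted p = 0.33). Lyz2 and Fcer1g passed the filter only through their R111A values, as did Klrd1, Eomes and Cd79a among the markers that follow, which favors calls as higher. Without R111A replicate 1, Lyz2 and Cd79a did not pass the filter. Cd68 was the most abundant of them in R111A cells, at 8.89 and 6.81 FPKM, Csf1r was at most 0.07 FPKM in any library and S100a9 was listed at 0. The 7 NK and CD8 markers summed to 9.34 and 7.98 FPKM in WT and to 23.9 and 23.7 FPKM in R111A, with Klrd1 the most abundant in R111A cells at 12.1 and 13.6 FPKM and Cd8a at most 0.2 FPKM in any library. Of these, 3 were tested, with 2 called higher (Klrd1 and Eomes) and Cd8b1 lower by the adjusted p alone. Among B cell markers, Cd79a was called higher, with 0.32 and 0.24 FPKM in WT cells against 2.99 and 2.37 in R111A cells, and Ms4a1 was at most 0.23 FPKM in any library. Sorting of CD4+ T cells is meant to remove such cells, and a GFP gate, which the methods describe for mice with a GFP reporter without naming these libraries, could have been applied to R111A cells only. The part of these cells in the values of Dusp1, Dusp10 and Spry2, which were higher in the same libraries, was not tested. Nor was it tested for the pathway genes called higher, such as Dok3.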

How the data were processed

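PolyA RNA of 4 libraries was sequenced. After trimming and filtering, the authors mapped reads with Bowtie2 (2.4.4, mm10), quantified genes with RSEM (1.2.28) and deposited FPKM values for 16142 genes (0 columns of samples were not used). The authors' DESeq2 test on counts was not repeated, since FPKM are not counts. Values were tested here as log2(FPKM + 1) with limma (3.58.1, R 4.3.3, lmFit and eBayes with trend, Benjamini-Hochberg) for genes whose mean reached 1 FPKM. The procedure was run on simulated data with the same spread in all libraries. The wider spread between the R111A replicates was thus not covered by that simulation. An exact permutation test of 2 against 2 libraries cannot reach 0.05. Promoters and gene positions came from RefSeq (GRCm38.p6), and 3'UTRs from GENCODE on GRCm38, folded with RNAfold (2.7.2); a last window under 100 nt was left out. Genes and lists were chosen with earlier results of these data known. The genes named were the 10 genes, up to 4 per pathway or marker list and direction past both thresholds without overlap of the groups, Zc3h12a, and the 3 genes most like the most raised and the most lowered gene. Other genes were named after their values were seen. The alternatives were other pseudocounts, filters, scalings, a replicate block, eBayes without trend, the adjusted p alone, and each library left out.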

Additional observations from a re-analysis of the deposited data

How the results depend on the processing

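Of the 10 genes, 3 were called higher and 2 lower with FPKM as deposited, and the same counts were obtained with each library left out in turn, where the lone library of a group is assumed to vary like the other group. At a pseudocount of 5 FPKM only 1 (Dusp1) was called higher, under quantile normalization only 1 (Dusp6) was called lower, and by the adjusted p alone 4 were lower. Rescaling to TPM reversed the log2 fold changes of Dusp2 (-0.046) and Spry1 (-0.046), neither of which passed the test in either case; the divisor is the library sum, which was larger in R111A. Spry2 was not tested at a mean of at least 5 FPKM. Over the whole table, 838 genes were called higher and 820 lower. These counts became 386 and 402 at a pseudocount of 5 FPKM and 2088 and 3152 by the adjusted p alone, 521 were higher with a mean of at least 5 FPKM, where fewer genes were tested, and 1756 were lower after TPM. Over the 6 pathway lists tested, without the marker lists, 13 genes were called higher and 4 lower; by the adjusted p alone these were 25 and 22. The lower count was 1 at a pseudocount of 5 FPKM, 12 after TPM, 2 under median-of-ratios factors, 1 under quantile normalization and 2 to 4 with a library left out (2 without WT replicate 1). Where no construction of the alternative is named, the cause was not tested.

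The replicate numbers are shared by the groups, but across the genes tested the differences between replicates 1 and 2 correlated by only 0.111 between WT and R111A, and with 2 pairs the samples share only a number. With the replicate block, 841 genes were called higher and 821 lower, and among the 10 genes 3 and 2, and in the pathway lists 13 and 4. Spred2, not called at 2-fold, passed the adjusted p with the block (0.049) and after TPM (0.0076). The number of reads behind the low values, such as Spry2 in WT cells, is not known and limits them.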
